A study of Mus musculus with 9 samples.

Results

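The 8 h only regions were 1550 stretches of the mouse genome that carried a deposited Stat5a or Stat5b peak at 8 h of Th2 differentiation of CD4+ T cells and no deposited peak at 13 h or after 2 rounds. They were chosen by joining the 6 peak lists wherever peaks overlapped by 1 bp or more, with the mitochondrial chromosome left out. The joined lists held 43766 nuclear regions, so the 8 h only regions made up 3.54% of all regions and 23.2% of the 6678 regions with an 8 h peak. The other regions with an 8 h peak also had a peak at 13 h (515 regions), after 2 rounds (854 regions) or at all 3 stages (3759 regions). All positions are in the mm8 build as deposited.

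Chromatin immunoprecipitation followed by sequencing (ChIP-seq) recovers the DNA bound by a protein with an antibody to it. Mouse CD4+ T cells were immunoprecipitated with antibodies to Stat5a, to Stat5b and with IgG, a control antibody with no target in chromatin. The stages were 8 h, 13 h and 2 rounds of Th2 differentiation. Each of the 9 combinations was 1 library, so each group has no replicate, and intervals below cover counting error only. Mouse strain, age, cytokines and antibody clones were not used here, since the labels at hand do not state them. Depth ranged from 3130228 reads (Stat5a at 8 h) to 9036070 reads (Stat5b at 13 h), and levels are reads per 1000000 reads of the library (RPM).

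Stat5a and Stat5b are closely related transcription factors that are activated by Janus kinases downstream of cytokine receptors, above all the interleukin 2 receptor in T cells. Once phosphorylated they form dimers, enter the nucleus and bind a palindromic DNA motif. In CD4+ T cells activated with interleukin 4 they are known to help open the Th2 cytokine genes and to promote Th2 differentiation.

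The rule used the 8 h peaks and the lack of later peaks, and the peaks were called from the same reads that are counted here. The high 8 h levels and the low later levels of the 8 h only regions are therefore descriptions and no test. Of the 1550 regions, 834 (53.8%) carried a Stat5a peak alone, 664 (42.8%) a Stat5b peak alone and 52 (3.35%) peaks of both antibodies. Peaks of both antibodies at 8 h were far more common in regions that also had a 13 h peak. They were in 1540 (41%) of the 3759 regions with peaks at all 3 stages and in 87 (16.9%) of the 515 regions with peaks at 8 h and 13 h. The regions with peaks at 8 h and after 2 rounds had them in 39 cases (4.57%). These classes were also wider, with median widths of 841, 386 and 672 bp, against 205 bp for the 8 h only regions.

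The 8 h only regions were short. Their median width was 205 bp (38 to 1376 bp), and together they covered 0.298 Mb. Those with a Stat5a peak alone had a median width of 268 bp and those with a Stat5b peak alone of 84 bp. Regions with peaks at all 3 stages had a median width of 841 bp, which includes the joining of several peaks. Compared peak by peak, the 886 Stat5a 8 h peaks in 8 h only regions had a median width of 269 bp, against 312 bp for the other 4605 Stat5a 8 h peaks. The 721 Stat5b 8 h peaks in 8 h only regions had a median width of 84 bp, against 100 bp for the other 3012.

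Before the levels, a minority of regions has to be set apart. In 106 of the 1550 regions (6.84%) the 3 IgG libraries together held 20 or more reads, a limit chosen after seeing the data. These high-IgG regions held 47.3% of all Stat5a reads in the 8 h only regions at 8 h, 96.1% of the Stat5b reads and 98.6% of the IgG reads. They were 9 of the 834 regions with a Stat5a peak alone, 73 of the 664 with a Stat5b peak alone and 24 of the 52 with peaks of both antibodies. Because IgG itself defined them, leaving them out raises any ratio to IgG, and sums are given both ways.

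In 21 of the 106, over 50% of at least 20 reads of 1 library began at a single start and strand, called heaped reads. The extreme was a 39 bp region on chromosome 16 from 60832722 to 60832760, called in Stat5b at 8 h. It held 14 Stat5a, 140222 Stat5b and 79057 IgG reads at 8 h, then 17, 17 and 3 at 13 h, and 22, 33 and 62274 after 2 rounds. At 8 h these Stat5b reads began at only 6 distinct starts, with 140061 of them at 1. A similar 39 bp region on chromosome 3 from 107783672 to 107783710 held 10339 Stat5b and 6639 IgG reads at 8 h, 3 Stat5b reads and 1 IgG read at 13 h, and 5396 IgG reads and no Stat5b read after 2 rounds. Both regions are members by the rule, and at 8 h IgG was high in both beside the antibody that was called. At 8 h the share of reads that matched the genome without a mismatch was 3.26% for Stat5b and 4.87% for IgG in the high-IgG regions, where both heaped regions above hold most of the reads, and 37.4% for Stat5a. The later ChIP libraries had 35.4% to 39.3% there, against 53.4% to 62.1% over the 9 whole libraries. In the other 1444 regions the share at 8 h was 59.7% for Stat5a, 55.7% for Stat5b and 48.2% for IgG. Among these, the 591 with a Stat5b peak alone had 51.7% for Stat5b and 38.3% for IgG at 8 h, both below the range of whole libraries.

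The 834 regions with a Stat5a peak alone rested on few reads. Their median level of Stat5a was 2.88 RPM at 8 h, 0.361 RPM at 13 h and 0.301 RPM after 2 rounds. Stat5b had medians of 0.291, 0.443 and 0.522 RPM at the same stages, and IgG of 0.16, 0.133 and 0.173 RPM. Only Stat5a at 8 h stood out, with a median of 9 reads at 5 distinct starts, and the middle 50% of the regions ran from 2.24 to 3.51 RPM. At 13 h 163 of the 834 regions held no Stat5a read, and after 2 rounds 200 held none.

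The 664 regions with a Stat5b peak alone were poorer still. Stat5b had a median of 1.02 RPM at 8 h, 0.111 RPM at 13 h and 0.131 RPM after 2 rounds. The median Stat5a level was 0, 0.12 and 0 RPM, and the median IgG level was 0 at each stage. The 8 h median of 1.02 RPM stands for 7 Stat5b reads at 5 distinct starts. Stat5a had no read at 8 h in 437 of the 664 regions (65.8%).

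The 52 regions with peaks of both antibodies had the highest medians, 4.31 RPM for Stat5a and 2.04 RPM for Stat5b at 8 h. At 13 h these were 1.56 and 2.05 RPM, and after 2 rounds 1.73 and 1.5 RPM. Their IgG medians were 0.32, 0.93 and 0.778 RPM, so IgG was also higher there than in the other 8 h only regions. For scale, the regions with peaks at all 3 stages had Stat5a medians of 5.11, 3.61 and 4.51 RPM and Stat5b medians of 2.48, 5.31 and 9.53 RPM.

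**Figure D1:**
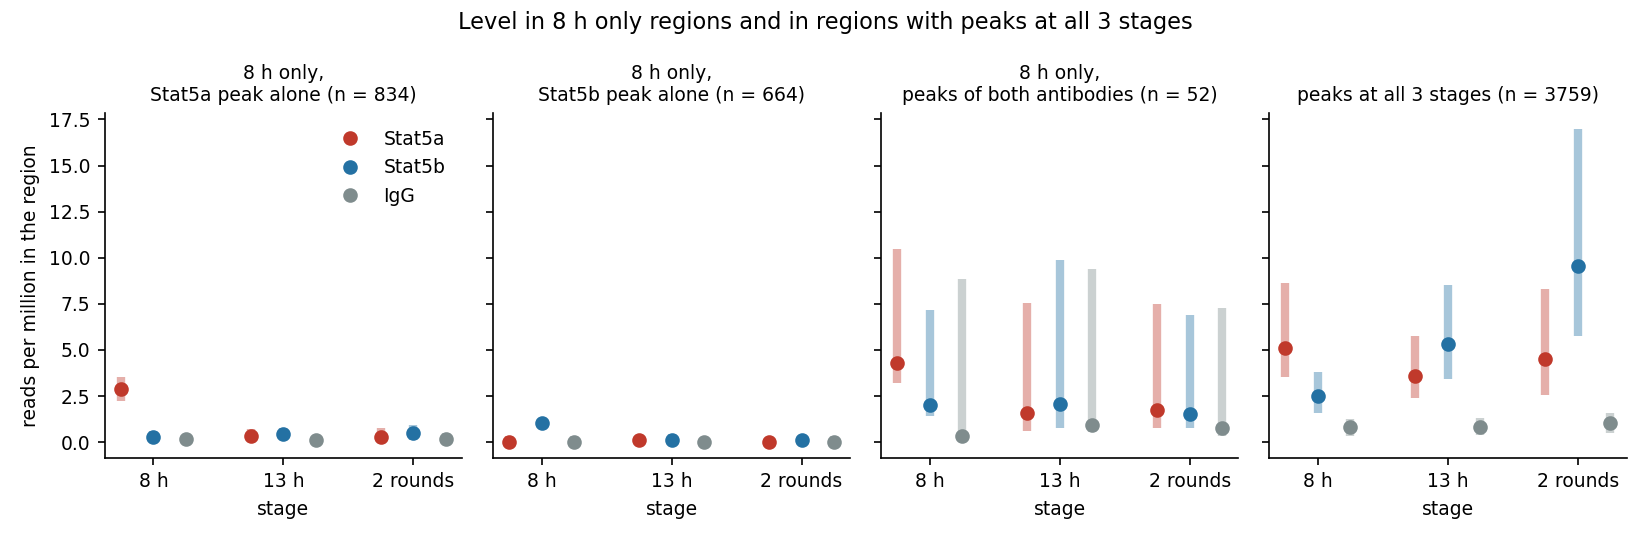
Median level in RPM (points) with the middle 50% of regions (bars) for Stat5a, Stat5b and IgG at each stage, 1 library per point. In 8 h only regions with a Stat5a peak alone, Stat5a reached 2.88 RPM at 8 h and fell to 0.361 and 0.301 RPM later, while regions with peaks at all 3 stages kept Stat5a between 3.61 and 5.11 RPM and reached 9.53 RPM of Stat5b after 2 rounds. The wide bars of the 52 regions with peaks of both antibodies include 24 high-IgG regions.

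A region was called over IgG when the 95% interval of the ratio to IgG of the same stage lay wholly above 1. At 8 h Stat5a was over IgG in 855 of the 1550 regions (55.2%), against 23.2% of all nuclear regions, and Stat5b in 402 (25.9%), against 12.1%. Since these reads gave the peaks, nothing is read from the excess. Stat5a was over IgG in 795 of the 834 regions with a Stat5a peak alone, and Stat5b in 328 of the 664 with a Stat5b peak alone. With each start and strand counted once, Stat5a was over IgG in 749 of the 834 regions and Stat5b in 22 of the 664. The median share of reads at the top start was alike, 30% for Stat5a and 28.6% for Stat5b. The limits differed with depth: against 0 IgG reads, 4 distinct starts sufficed for Stat5a and 7 were needed for Stat5b, and the median region had 5 of either. Why the Stat5b count fell so much more on distinct starts was not tested. With reads moved 75 bp downstream, towards the middle of their fragments, Stat5b was over IgG in 134 of the 1550 regions instead of 402. Peaks of both antibodies came with both antibodies over IgG in 26 of the 52 regions, and in 17 on distinct starts. Shares of all nuclear regions on distinct starts, with moved reads or for both antibodies together are not given here. Those counts are descriptions only.

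The 2 antibodies were also compared with each other at 8 h, with a region called when the interval of Stat5b over Stat5a lay wholly above 2 or below 0.5. Stat5b was lower than Stat5a in 428 of the 1550 regions, against 3.8% of all nuclear regions, and higher in 10, against 0.048%. The regions were split by which antibody was called, so the counts restate that split.

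At 13 h and after 2 rounds, where a peak would have removed a region, the 8 h only regions were rarely over IgG. At 13 h Stat5a was over IgG in 88 regions (5.68%), against 37.4% of all nuclear regions, and Stat5b in 130 (8.39%), against 38.8%. After 2 rounds Stat5a was over IgG in 71 (4.58%), against 32.7%, and Stat5b in 104 (6.71%), against 71.5%. The rule fixes that these shares are low. Over IgG in 1 or more of the 4 later ChIP libraries were 305 of the 1550 regions (19.7%), against 91.1% of all nuclear regions. In 2 or more were 74, against 51.8%, and in all 4 were 3, against 11.3%. On distinct starts 56 were over IgG in 1 or more, against 73.7%. As 4 libraries are pooled in such a count, the mirror count is given beside it: 112 of the 1550 regions (7.23%) were under IgG in 1 or more of the 4, with the interval wholly below 1, against 2.59% of all nuclear regions.

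The excess of calls over IgG lay in the regions with a Stat5a peak alone, where 242 of 834 (29%) were over IgG in 1 or more later libraries and 30 (3.6%) were under it. In the regions with a Stat5b peak alone, 43 of 664 (6.48%) were over IgG and 62 (9.34%) under it. In the 52 with peaks of both, 20 were over IgG and 20 under it. Later calls over IgG thus outnumbered calls under it only in the regions with a Stat5a peak alone.

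Between stages, a region was called lower when the interval of the later level over the 8 h level lay wholly below 0.5, and higher when wholly above 2. Stat5a at 13 h was lower in 417 of the 1550 regions, against 2.15% of all nuclear regions, and higher in 2, against 0.286%. After 2 rounds Stat5a was lower in 357, against 1.91%, and higher in 2, against 3.73%. Of the 834 regions with a Stat5a peak alone, 403 were lower at 13 h, 343 after 2 rounds and 222 at both. Regions that kept a later peak also lost Stat5a in places: it was lower at 13 h in 9.72% of the regions with peaks at 8 h and after 2 rounds, in 8.93% of those with peaks at 8 h and 13 h, and in 3.01% of those with peaks at all 3 stages. After 2 rounds it was lower in 24.7% of the regions with peaks at 8 h and 13 h, against 23% of the 8 h only regions, and in 4.33% and 3.75% of the other groups.

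Stat5b at 13 h was lower in 106 of the 1550 regions, against 0.304% of all nuclear regions, and higher in 6, against 5.27%. After 2 rounds it was lower in 77, against 0.215%, and higher in 14, against 43.4%. Regions with a Stat5b peak alone held 102 of the 106 and all 77, with 48 lower at both stages. The regions with a Stat5a peak alone gave 3 Stat5b falls at 13 h and none after 2 rounds, and 5 and 14 rises. On distinct starts the Stat5a falls numbered 188 at 13 h and 73 after 2 rounds, and the Stat5b falls 3 and 2. With reads moved 75 bp downstream the Stat5b falls numbered 10 and 4. Shares of all nuclear regions under these settings, and for falls at both stages, are not given here. Nothing is therefore read from those counts about the 8 h only regions against others.

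The Stat5b counts also turn on the scaling. The median Stat5b ratio to 8 h was taken over the nuclear regions with reads in both libraries. On the log2 scale it was 0.93 at 13 h and 2.27 after 2 rounds, so most of these regions gained Stat5b in RPM. Relative to that median, Stat5b was lower in 367 of the 1550 regions at 13 h and in 727 after 2 rounds, and higher in none. The rises counted in RPM are therefore no longer rises against that median. The joined regions drew on 33692 Stat5b peaks after 2 rounds and 3970 at 8 h. As the 8 h only regions were chosen for lacking later peaks, the rule fixes falls against that median. The share of all nuclear regions under this scaling is not given here, so nothing is read from these counts. For Stat5a the median shifts were -0.20 and 0.14.

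IgG gave the same comparison with no antibody target. At 13 h it was lower than at 8 h in 11 of the 1550 regions, against 0.462% of all nuclear regions, and higher in 6, against 0.254%. After 2 rounds it was lower in 2, against 0.146%, and higher in 7, against 0.551%.

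Depth limits these calls, more for Stat5b than for Stat5a. With no later read, a region needed 5 reads at 8 h for Stat5a to be called lower at 13 h and 6 after 2 rounds. Of the 886 regions with a Stat5a peak, 883 and 839 had that many. For Stat5b the limits were 8 and 9 reads, reached by 317 (44.3%) and 233 (32.5%) of the 716 regions with a Stat5b peak. At an unchanged level the median Stat5a region would have held 23.9 reads at 13 h and 19.1 after 2 rounds, and its observed medians were 3 and 2. The median Stat5b region would have held 9.21 and 7.81 reads, against observed medians of 1 and 1.

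The fewer reads an 8 h peak held, the more often it was an 8 h only peak, with an exception at the highest counts. Of the Stat5a 8 h peaks with 1 to 9 reads, 30.4% (546 of 1794) lay in 8 h only regions, against 12.5% of those with 10 to 19 reads and 1.22% (11 of 901) of those with 20 to 39. For Stat5b the shares were 25.3% (547 of 2158), 10.7% and 5.51%. At 40 or more reads the shares were 4.3% (13 of 302) for Stat5a and 15.5% (30 of 193) for Stat5b. All 13 and all 30 of these were high-IgG regions, as were 6 of the 11 Stat5a peaks and all 20 Stat5b peaks with 20 to 39 reads. These shares leave out the heaped regions and are a description, because reads also decided which peaks were called.

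**Figure D2:**
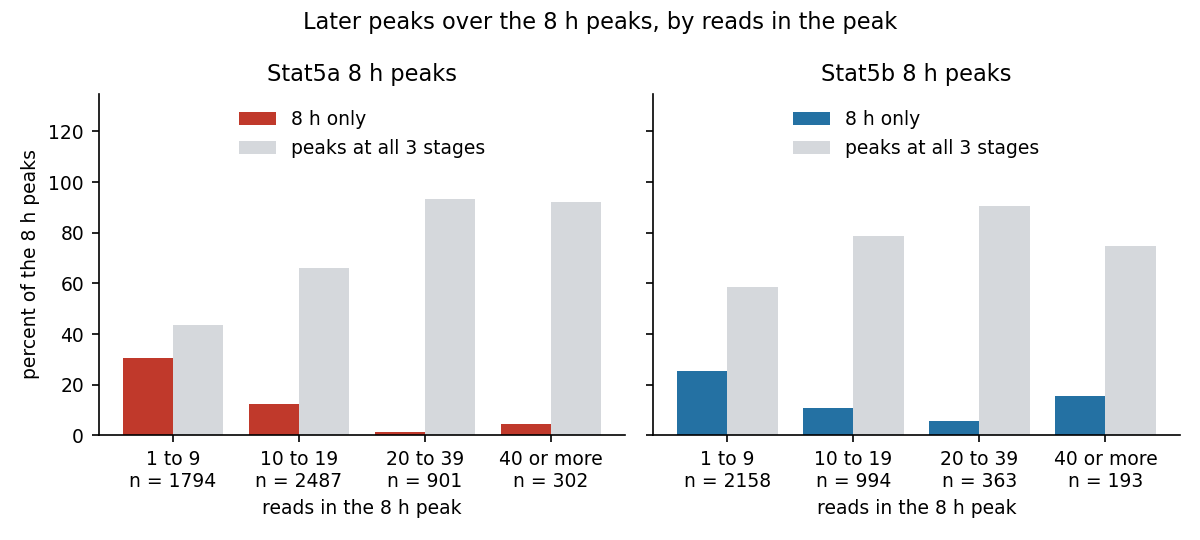
Percent of the Stat5a 8 h peaks (left) and the Stat5b 8 h peaks (right) that lie in 8 h only regions (coloured bars) or in regions with peaks at all 3 stages (grey bars), by reads in the 8 h peak. The 8 h only share of Stat5a peaks was 30.4% at 1 to 9 reads and 1.22% at 20 to 39 reads.

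Sums over regions give more precision than single regions. Without heaped regions, the summed level of the 1550 set at 8 h was 2.21 times IgG for Stat5a (95% interval 2.16 to 2.26) and 1.28 times for Stat5b (1.25 to 1.31). At 13 h the ratios were 0.994 for Stat5a and 1.04 for Stat5b, and after 2 rounds 0.848 and 0.685. The high-IgG regions dominate these sums, as their share of the reads shows. Without them, 1444 regions remain and the ratios were 11.3 and 4.21 at 8 h, 1.53 and 1.91 at 13 h, and 1.52 and 1.85 after 2 rounds, so the direction against IgG after 2 rounds turns with their inclusion. On distinct starts, with the high-IgG regions kept, the ratios were 4.15 and 1.88 at 8 h and 1.15 and 1.17 after 2 rounds.

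In the 825 regions with a Stat5a peak alone that were not high in IgG, distinct starts of Stat5a were 15.4 times IgG at 8 h (14.2 to 16.8), 1.7 times at 13 h (1.57 to 1.83) and 1.6 times after 2 rounds (1.48 to 1.74). Stat5b, with no called peak there, was 2.23 times IgG at 8 h (2.03 to 2.44), 2.13 times at 13 h and 2.06 times after 2 rounds. The rule fixes a fall of Stat5a here. Stat5a at 13 h was 0.157 of its 8 h level (0.149 to 0.166), while Stat5b was 1.37 of its own (1.29 to 1.46) and IgG 1.43 of its own (1.29 to 1.58). Stat5b and IgG thus gained by like amounts in these sums, with overlapping intervals.

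In the 591 regions with a Stat5b peak alone that were not high in IgG, Stat5b was 6.85 times IgG at 8 h (6.17 to 7.63), 1.27 times at 13 h (1.12 to 1.43) and 1.1 times after 2 rounds (0.968 to 1.26). Stat5a was 1.34 times IgG at 8 h (1.14 to 1.57), 1.17 times at 13 h (1.03 to 1.33) and 1.02 times after 2 rounds (0.884 to 1.17). After 2 rounds neither antibody could be told from IgG within counting error in the sum over all 591 regions. In the 73 of them within 1000 bp of a later peak, Stat5b was then 1.62 times IgG (1.16 to 2.31). In the 518 farther away it was 1.02 times (0.886 to 1.18), and these 2 intervals overlap. The Stat5b level at 13 h was 0.175 of the 8 h level (0.16 to 0.191), the fall that the rule fixes, and the Stat5a level 0.828 (0.711 to 0.965).

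The 28 regions with peaks of both antibodies that were not high in IgG had the largest ratios and the widest intervals. Stat5a was 21.9 times IgG at 8 h (13.5 to 37.7) and Stat5b 11.1 times (6.88 to 19.1). At 13 h the ratios were 1.78 (1.29 to 2.48) and 2.25 (1.66 to 3.09), and after 2 rounds 2.6 (1.77 to 3.89) and 2.7 (1.87 to 4). IgG itself was at 13 h 2.81 of its 8 h level (1.64 to 5.05), which by itself lowers these ratios. Stat5a was then 0.229 of its 8 h level (0.179 to 0.291) and Stat5b 0.569 (0.461 to 0.701). For comparison, regions with peaks at all 3 stages and under 20 IgG reads had Stat5a at 8.63, 5.19 and 5.73 times IgG and Stat5b at 4.25, 7.48 and 11.5 times.

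**Figure D3:**
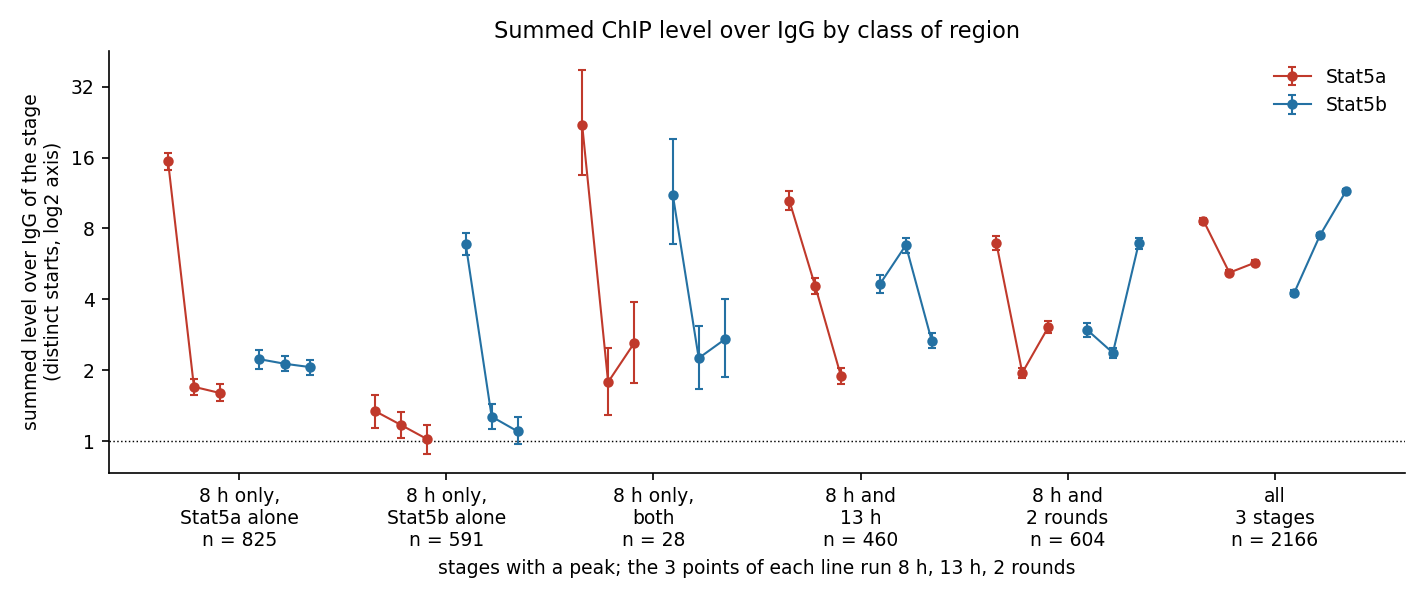
Summed level over IgG of the same stage, on distinct starts and a log2 axis, for classes of region without heaped or high-IgG regions, with 95% counting intervals. The 3 points of each line run from 8 h to 13 h to 2 rounds. In 8 h only regions with a Stat5a peak alone, Stat5a was 15.4, 1.7 and 1.6 times IgG, and with a Stat5b peak alone Stat5b was 6.85, 1.27 and 1.1 times IgG.

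The shape of the signal around the region centres was read from distinct starts in 50 bp steps. The limits of the regions come from the 8 h reads, which fixes a high centre at 8 h. In the 825 regions with a Stat5a peak alone, the Stat5a level within 100 bp of the centre at 8 h was 10.6 times the level between 1000 and 1500 bp away. Stat5b, whose reads did not set those limits, was 2.15 times its flanks at 8 h, against 1.3 times for IgG. At 13 h the centre was 2.08 times the flanks for Stat5a and 2.15 times for Stat5b, against 1.65 times for IgG, and after 2 rounds 1.88 and 1.73 times, against 1.59 times for IgG. A low mound of both antibodies thus lay at these centres at the later stages, close to IgG for Stat5b after 2 rounds. These ratios carry no interval, and the IgG mound was itself higher at the later stages than at 8 h.

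In the 591 regions with a Stat5b peak alone, Stat5b at 8 h was 10.5 times its flanks, and Stat5a was 2.68 times, against 2.42 times for IgG. At 13 h the centres were 2.5 times the flanks for Stat5a and 2.4 times for Stat5b, against 2.31 times for IgG. After 2 rounds they were 2.32 and 2.15 times, against 2.33 times for IgG. IgG was therefore as concentrated at these narrow centres as the antibodies were at the later stages.

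**Figure D4:**
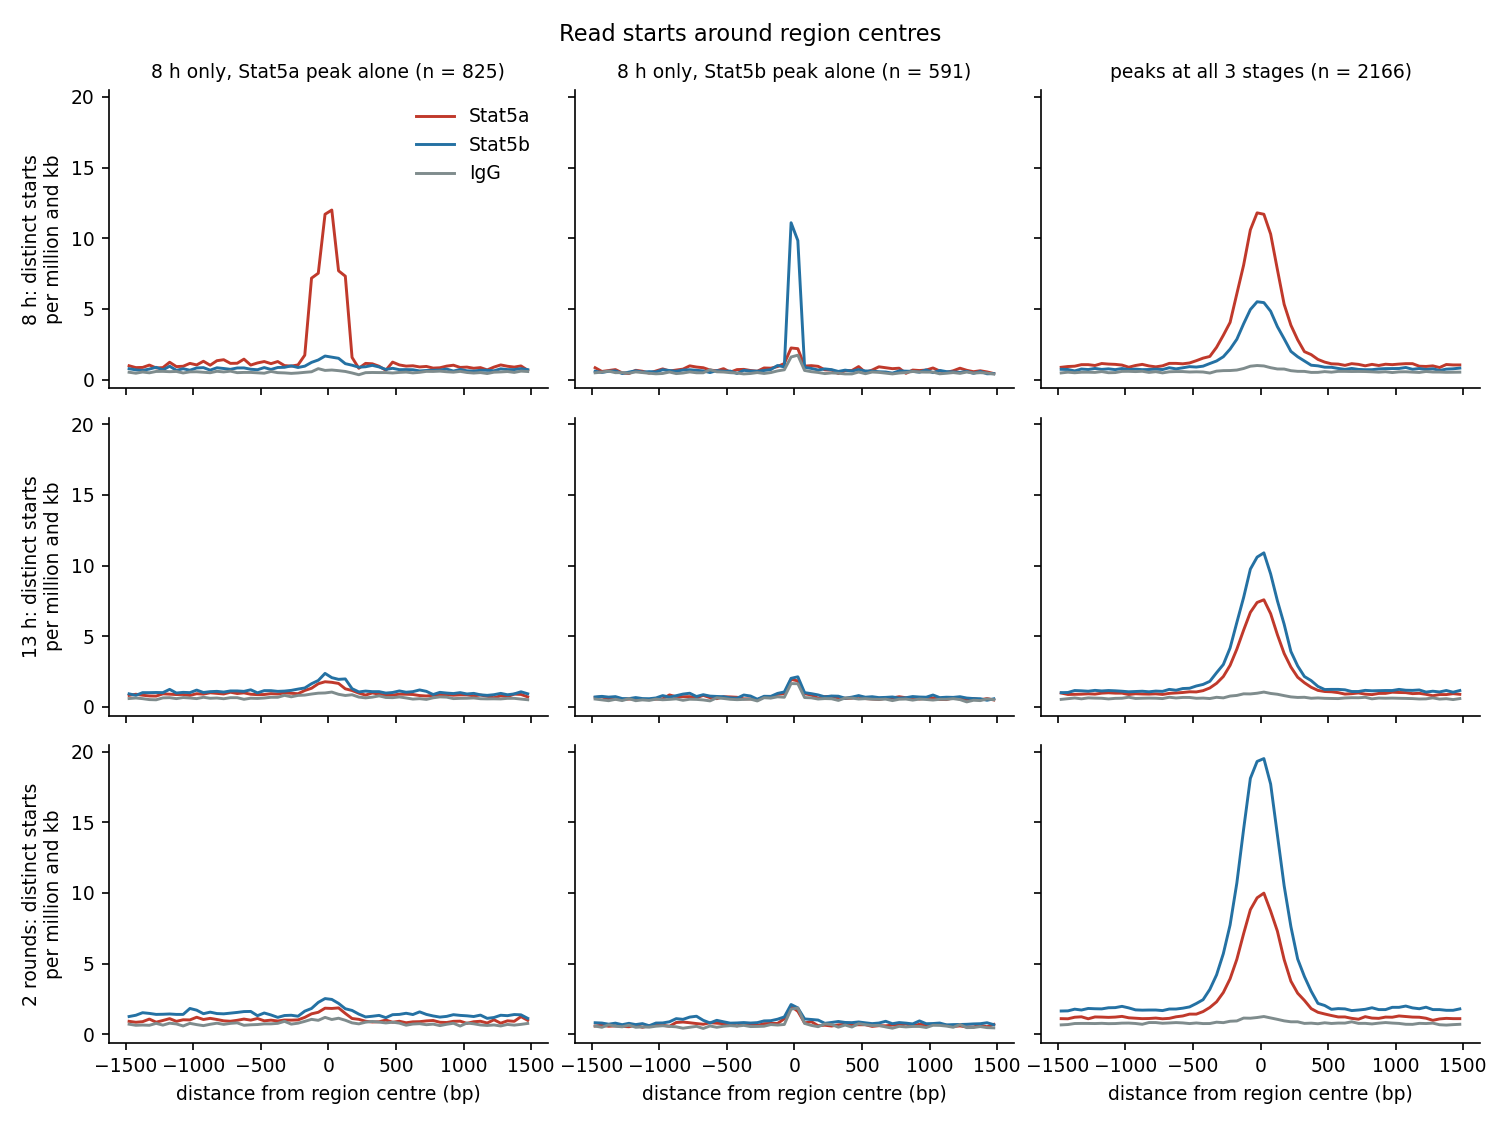
Distinct read starts in RPM per kb in 50 bp steps around region centres at 8 h (top), 13 h (middle) and after 2 rounds (bottom), without heaped or high-IgG regions. The steep 8 h peaks of the 8 h only regions (left and middle columns) give way to mounds close to IgG, while regions with peaks at all 3 stages (right column) keep peaks of both antibodies.

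The distance between strands was measured next. Around a bound site, forward starts lie upstream and reverse starts downstream, so their mean positions are apart by a part of the fragment length. Within 300 bp of the centres, reverse starts of Stat5a at 8 h lay on average 82.5 bp downstream of forward starts in the 825 regions with a Stat5a peak alone, against 77 bp in regions with peaks at all 3 stages. IgG gave 11.6 bp in the same 825 regions. At 13 h and after 2 rounds Stat5a gave 28.9 and 35.8 bp there, and IgG 24.4 and 8.26 bp. Stat5b gave 34.7, 34.5 and 25 bp at the 3 stages. In each set the 8 h reads of the called antibody also gave the peaks and region limits. Their separation is therefore a description and no test. In the 591 regions with a Stat5b peak alone, Stat5b at 8 h gave 33.3 bp, against 65.2 bp in regions with peaks at all 3 stages, and IgG gave 16.3 bp. In the narrow Stat5b regions the Stat5b separation at 8 h was thus smaller than at regions with peaks at all 3 stages, though larger than that of IgG at 8 h. It was not particular to the library with the peak. Stat5a gave 30.4, 25.9 and 36.3 bp there at the 3 stages. At 13 h and after 2 rounds Stat5b gave 35.2 and 16.4 bp, and IgG 28.1 and 7.42 bp. In the 28 regions with peaks of both antibodies the values were 79.5 bp for Stat5a and 65.4 bp for Stat5b. These figures have no replicate and the width of a called peak can itself bound the separation, which was not tested.

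Single regions are named by rank. Ranked by the mean RPM of both antibodies above IgG at 8 h, each of the first 8 regions was high in IgG. The first, on chromosome 2 from 98462994 to 98463910, held 758 RPM of Stat5a, 654 of Stat5b and 661 of IgG at 8 h, then 691, 730 and 798 RPM at 13 h, and 615, 449 and 844 RPM after 2 rounds. It was called in Stat5a alone, where the ratio to IgG was 1.15 (1.09 to 1.21). The ranking was therefore repeated among regions with under 20 IgG reads, a step added after seeing the values.

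In that ranking the first region lay on chromosome 12 from 16195641 to 16196178 and carried peaks of both antibodies. It held 24 Stat5a, 10 Stat5b and 0 IgG reads at 8 h, 10, 14 and 6 at 13 h, and 9, 12 and 5 after 2 rounds. Stat5a at 8 h was 7.67 RPM, at least 16-fold higher than IgG with IgG set at a floor of 3 reads. Stat5a fell to 0.157 of its 8 h level at 13 h (0.067 to 0.34) and to 0.177 after 2 rounds (0.0723 to 0.394), while Stat5b stayed at 1.06 (0.44 to 2.68) and 1.08 (0.426 to 2.78). Both antibodies were over IgG at 8 h, and neither was at 13 h, where Stat5a was 1.51 times IgG (0.497 to 5.05). A later peak lies 804 bp away.

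The next, on chromosome 6 from 129269863 to 129270303, held 21 Stat5a, 10 Stat5b and 0 IgG reads at 8 h, 5, 13 and 3 at 13 h, and 7, 6 and 1 after 2 rounds. Its Stat5a level at 13 h was 0.0897 of that at 8 h (0.0264 to 0.244), and its Stat5b level 0.988 (0.4 to 2.52). The third, on chromosome 16 from 48691691 to 48692018 with peaks of both, held 19, 17 and 2 reads at 8 h, 13, 15 and 7 at 13 h, and 16, 7 and 1 after 2 rounds. There Stat5a was 1.68 times IgG at 13 h (0.624 to 4.98), and after 2 rounds 13.9 times (2.16 to 584), a ratio to 1 IgG read.

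**Figure D5:**
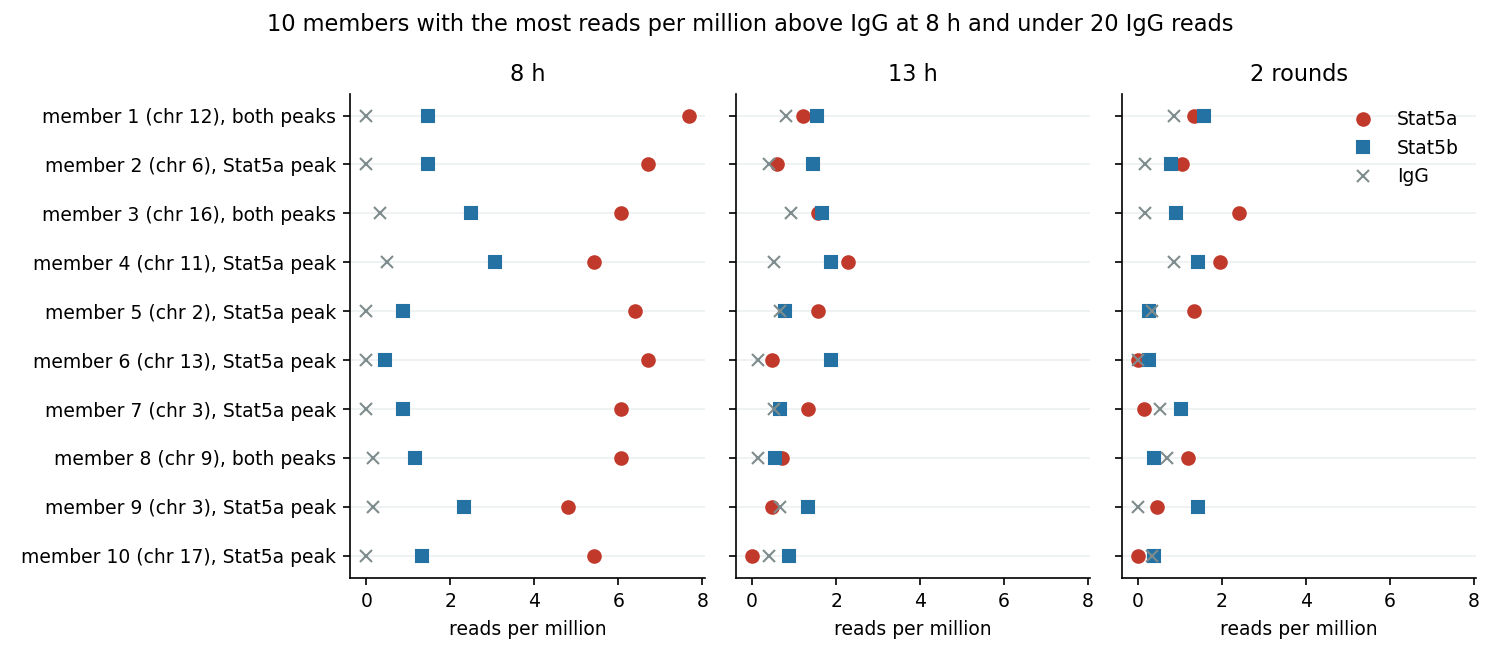
RPM of Stat5a, Stat5b and IgG at 8 h (left), 13 h (middle) and after 2 rounds (right) in the 10 regions with the most RPM above IgG at 8 h among those with under 20 IgG reads, 1 library per point. Stat5a is the highest of the 3 at 8 h in each row, between 4.79 and 7.67 RPM, and at 2.41 RPM or below at both later stages.

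The steepest Stat5a falls ended at 0 reads. The region on chromosome 17 from 73058706 to 73058997 held 17 Stat5a reads at 8 h and none at 13 h or after 2 rounds. With 13 h set at the floor of 3 reads, its level there was at most 0.0665 of the 8 h level. Stat5b gave 9, 8 and 3 reads at the 3 stages and IgG 0, 3 and 2. On chromosome 12 from 29791227 to 29791443, Stat5a gave 16, 0 and 0 reads, Stat5b 4, 2 and 1, and IgG 0, 3 and 0, with 109174 bp to the nearest later peak. On chromosome 2 from 72639085 to 72639415, Stat5a gave 15, 0 and 2 reads while Stat5b gave 5, 17 and 9 and IgG 0, 6 and 0. There the antibodies moved apart, although the Stat5b ratio at 13 h over 8 h of 2.58 (0.915 to 8.96) did not pass the rule.

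The 4 steepest Stat5b falls were in heaped regions, led by the chromosome 16 and chromosome 3 regions described above. The fifth, without heaped reads but high in IgG, lay on chromosome 15 from 20236959 to 20237039 and held 31 Stat5b and 11 IgG reads at 8 h, no read of either at 13 h, and 0 and 10 after 2 rounds. Stat5a had no read there in any library. With 31 reads at 7 distinct starts it was 2.56 times IgG at 8 h (1.25 to 5.65).

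Some regions kept reads without a later peak. On chromosome 10 from 13660527 to 13660914, a region with peaks of both antibodies held 12 Stat5a, 19 Stat5b and 1 IgG reads at 8 h, 13, 20 and 3 at 13 h, and 18, 18 and 1 after 2 rounds. Both antibodies were over IgG at each stage, the lowest ratio being 3.92 (1.08 to 21.5) for Stat5a at 13 h. On chromosome 17 from 23277820 to 23278142, Stat5b gave 6, 7 and 33 reads against IgG of 1, 7 and 3, and after 2 rounds was 4.93 times its 8 h level (2.04 to 14.4). This region carried a Stat5a peak at 8 h and lies 328 bp from a later peak. On chromosome 10 from 18877940 to 18878296, Stat5b gave 8, 17 and 24 reads against IgG of 3, 2 and 4, with a later peak 1675 bp away.

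Distances were taken to the nearest later peak of either antibody. The median distance to the nearest later peak was 8145 bp, and 317 of the 1550 regions (20.5%) had one within 1000 bp. The share was 26.4% (220) for regions with a Stat5a peak alone, 12.8% (85) for those with a Stat5b peak alone and 23.1% (12) for those with both, with medians of 4832, 20034 and 4587 bp. Within 10 kb of a region with peaks at all 3 stages lay 284 (18.3%). In the regions with a Stat5a peak alone and under 20 IgG reads, the Stat5a level after 2 rounds was 2.42 RPM per kb in the 219 within 1000 bp and 1.62 in the 606 farther away. IgG was 1.3 and 1.01 RPM per kb, so the ratios to IgG were 1.86 (1.66 to 2.08) and 1.6 (1.48 to 1.74), with overlapping intervals. At 13 h the Stat5a levels were 1.84 and 1.55 RPM per kb and those of IgG 1.18 and 0.903. On distinct starts the ratio at 13 h was 1.7 in both. In the regions with a Stat5b peak alone, distinct starts of Stat5b at 13 h were 2.34 times IgG in the 73 within 1000 bp (1.61 to 3.47) and 1.16 times in the 518 farther away (1.02 to 1.32). The intervals of this pair do not overlap, and the difference was not tested.

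The limit of the rule is 1 bp of overlap. The nearest members lay 0, 1 and 2 bp from a later peak. The region on chromosome 7 from 28690371 to 28690809, at 1 bp, held 18 Stat5a, 4 Stat5b and 1 IgG reads at 8 h, 6, 10 and 2 at 13 h, and 10, 14 and 12 after 2 rounds. Of the regions just outside, with an 8 h peak that overlaps a later one by 4, 5 and 6 bp, that on chromosome 1 from 69481862 to 69482584 held 22, 11 and 1 reads at 8 h, 12, 26 and 2 at 13 h, and 9, 22 and 3 after 2 rounds.

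Along the genome the 8 h only regions were mostly single. Joined where less than 10 kb apart, they fell into 1461 groups, of which 1402 held 1 region, 47 held a pair and 12 held 3 or more. The largest held 18 regions on chromosome 9 from 3001010 to 3036662, all high in IgG. The X chromosome held 62 of the 1550 regions (4%), against 74 of the 5128 other regions with an 8 h peak (1.44%). It held 38 (5.72%) of the regions with a Stat5b peak alone and 24 (2.88%) of those with a Stat5a peak alone. Chromosome 11 held 6.45% of the 8 h only regions, against 8.4% of the others.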

How the data were processed

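The 9 libraries were 1 per antibody and stage. The authors deposited the positions of mapped reads and, for the 6 Stat5a and Stat5b libraries, of called peaks, all in mm8 per the file names; these are positions with no score. No label or header names the aligner, peak caller, thresholds or use of IgG. Deposited reads were 24 or 25 bp long, and the mix differed by library. Reads of 24 bp were 38% of the Stat5a library from 13 h and 54.5% of the one from 2 rounds. The matching IgG shares were 49.7% and 77.3%. Every 8 h library and every Stat5b library had a share of 0%. Stat5a and IgG levels compared between stages therefore also differ in read length, as do later Stat5b levels set against IgG. Read counts were made here at the 5' end, moving starts of 24 bp reads 1 bp upstream, and divided by library reads to give RPM. Ratios have exact conditional (Clopper-Pearson) 95% intervals, shares Wilson intervals. A count of 0 was set to a floor of 3 reads only for folds of named regions given as at least or at most. Medians, calls, sums and intervals used the counts as they were. With 1 library per group no p-value was computed, and intervals cover counting error only, since reads lack molecular identifiers.

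Regions were named by rank: most RPM above IgG at each stage, largest falls to 13 h, nearest to the rule's limit, both antibodies over IgG, and most heaped reads. The ranking and alternative under 20 IgG reads, the alternative without regions within 1000 bp of a later peak and the counts under IgG were added after seeing the data. The members and lists were chosen with earlier results of these data known. Python 3.11.15, numpy 2.4.6, pandas 2.3.3 and scipy 1.17.1 were used, and counting and intervals were tested on simulated data. Gene annotation, motifs and sequences in mm8 were not used here. Alternatives changed the reads counted, the scaling, the IgG used, the window and the members.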

Additional observations from a re-analysis of the deposited data

Results flagged for a closer look

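The mitochondrial chromosome was left out of the 8 h only regions, yet it held regions with an 8 h peak and reads over IgG. At 8 h the region from 1771 to 2609 held 111 Stat5a, 226 Stat5b and 107 IgG reads, and Stat5a was 2.07 times IgG (1.57 to 2.72) and Stat5b 1.92 times (1.52 to 2.44). In the region from 2625 to 4795 the ratios were 2.08 (1.78 to 2.43) for Stat5a and 2.18 (1.92 to 2.49) for Stat5b. The excess there was not confined to 8 h. At 13 h Stat5a was 62.7, Stat5b 91.1 and IgG 49 RPM, and after 2 rounds 116, 160 and 90.2 RPM. In a further region from 15897 to 15948 the 8 h intervals took in 1 for Stat5a (0.33 to 3.21) and Stat5b (0.89 to 4.32). These regions lie outside the comparisons above, and no binding is read from them.

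In the 8 h only regions with a Stat5a peak alone, without heaped regions, the summed Stat5a level at 13 h was 0.418 of that at 8 h, while the Stat5b level was 1.24 of its own and IgG 1.27 of its own. After 2 rounds the values were 0.402 for Stat5a, 0.927 for Stat5b and 1.44 for IgG. These sums keep the high-IgG regions. Without them the values at 13 h were 0.15 for Stat5a, 1.46 for Stat5b and 1.51 for IgG. After 2 rounds they were then 0.17, 1.63 and 1.69. Either way the Stat5b value at 13 h lies below 1.9, the median Stat5b ratio of the nuclear regions with reads in both libraries. A sum and a median over single regions are unlike measures. The difference between antibodies was not tested, and the choice of regions by a Stat5a peak at 8 h fixes the fall of Stat5a.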

How the results depend on the processing

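Of 197 recomputed values for the 8 h only regions, 100 stayed within their limits, 92 left them and 5 changed direction. The cause was not tested. Sums leave out heaped regions unless said. For the counts below, shares of all nuclear regions under the alternative settings are not given here. Counting each start and strand once gave, for Stat5a against 8 h, 188 lower and 0 higher at 13 h and 73 and 0 after 2 rounds. For Stat5b it gave 3 lower and 1 higher at 13 h, and 2 and 1 after 2 rounds. Over IgG were then 14 (Stat5a) and 29 (Stat5b) at 13 h, 4 and 17 after 2 rounds, and 48 for Stat5b at 8 h. Stat5b over Stat5a was lower in 206 and higher in 0. Summed ratios to IgG were 4.15 and 1.88 at 8 h, 1.15 and 1.27 at 13 h, and 1.15 and 1.17 after 2 rounds, with 1.37 and 1.54 after 2 rounds in regions with a Stat5a peak alone. Keeping 25 bp reads alone took reads only from the later Stat5a and IgG libraries, which also lowered their depth. With these reads, Stat5a was higher than at 8 h in 0 at 13 h and 1 after 2 rounds, and lower in 143 after 2 rounds. Over IgG were 46 and 61 at 13 h, and 11 and 3 after 2 rounds. Sums were 0.997 (Stat5b at 13 h), 0.987 and 0.918 (after 2 rounds), and 1.13 and 1.07 in regions with a Stat5a peak alone. Moving reads 75 bp downstream gave 0 and 0 Stat5a rises, 10 and 4 Stat5b falls, 134 for Stat5b over IgG at 8 h, 1 region with Stat5b above Stat5a, and sums of 2.37 and 1.13 at 8 h and 0.87 for Stat5a after 2 rounds.

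Without heaped regions Stat5a rose in 0 and 0 and Stat5b exceeded Stat5a in 4. With them, sums were 0.31 and 1.55 at 8 h, 1.01 for Stat5b at 13 h, and 0.183 and 0.141 after 2 rounds, and Stat5a at 8 h was 0.0358 of IgG in regions with a Stat5b peak alone. Without high-IgG regions Stat5a rose in 0 and 0, and sums were 11.3 and 4.21, 1.53 and 1.91, and 1.52 and 1.85 at the 3 stages. After 2 rounds they were 1.69 and 2.12 in regions with a Stat5a peak alone. In those with both peaks they were 11.8 (Stat5b at 8 h), 1.54 and 2 (13 h), and 3 and 2.65 (2 rounds). With IgG pooled over stages, regions over IgG numbered 626 (Stat5b at 8 h), 177 and 267 (13 h), and 200 and 302 (2 rounds). Sums were 1.85 and 1.07, 1.03 and 1.07, and 0.962 and 0.777, and in regions with a Stat5a peak alone 0.916 (Stat5b at 8 h) and 1.02 (Stat5a after 2 rounds).

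Windows of 250 bp to each side gave 209 (Stat5b at 13 h), 136 and 189 (2 rounds) over IgG, 69 Stat5b falls and 15 rises at 13 h, 28 rises after 2 rounds, and sums of 1.34 (Stat5b at 8 h), 1.02 and 1.1, and 0.894 and 0.826. Scaling to reads outside regions gave 50 Stat5b falls and 24 rises after 2 rounds, and sums of 2.29 and 1.31, 1.04 and 1.1, and 0.891 and 0.815. Scaling by the median ratio gave 367 Stat5b falls and 0 rises at 13 h, and 727 and 0 after 2 rounds. Without regions within 1000 bp of a later peak, 44 were over IgG for Stat5a after 2 rounds, 6 had Stat5b rises after 2 rounds, and sums were 2.45 and 1.39 at 8 h and 1.03 and 1.06 at 13 h. Keeping the upper 50% of 8 h peaks by reads left 327 regions; the other 4 ways of choosing members stayed within 1.5 times 1550. No paired analysis was possible because each group is 1 library. Few reads per region limit the single calls, most of all for Stat5b.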
